A study of Homo sapiens with 8 samples.

Results

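Of 47 genes known to be switched on by type I interferon, 46 were listed among 16295 genes in RNA-seq libraries of MM1.S cells, a human multiple myeloma line of plasma-cell type. The members were taken by name from a set of sensors, antiviral effectors, ISG15-pathway enzymes and signalling factors. Reads sufficed to test 41 of them, 5 were listed but too low to test, and IFI44L is not analysed here. The study concerns EZH2, which methylates histone H3 as the catalytic subunit of a Polycomb repressor. The cells received DMSO, the solvent, or 0.5 uM of MS177, MS177N1 or C24, and RNA was taken after 24 h in 2 libraries per group, 8 in all. From background knowledge, MS177 is a small molecule that recruits EZH2 to a ubiquitin ligase for degradation, C24 is the EZH2 inhibitor it was built from, and MS177N1 is a structurally close control that does not degrade EZH2. No interferon was among the labelled treatments, and all groups are 1 cell line. Nothing in the labels says that the libraries of a group came from separate cultures, so p-values measure the spread between these samples only, which may be technical.

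Type I interferons bind the IFNAR1 and IFNAR2 receptor chains, whose kinases JAK1 and TYK2 phosphorylate STAT proteins, STAT2 among them. With IRF9 these form ISGF3, which binds interferon-stimulated response elements (ISREs) near the start sites of antiviral genes. Many of the products sense or block viral RNA, and ISGF3's own subunits are among the targets, so that the response can amplify itself.

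The promoter sequences are shown because this element is frequent among the members, though not in all, and because genes that carry it moved in opposite directions under MS177. RefSeq promoter windows (GRCh38.p14, from 250 bases before to 50 after a start site) were matched for 37 of the 47 members, in 51 windows. The ISRE core was searched as GAAANNGAAA on both strands. It was present in 24 of 37 members (64.9%), against 4.38% of all 27305 genes with a window; by window the shares were 56.9% and 3.57%. A second element, GAS, the STAT dimer site searched as TTCNNNGAA, was found in 10 of 37 members (27.0%) and in 9.38% of all genes. A match is a match of letters only. Below, ISRE matches are in capitals, each stretch runs 5′ to 3′ on the gene's strand, and overlapping matches appear as 1 longer run. The first 5 genes rose with MS177.
IFIT3, chr10:89332415-89332507, plus strand: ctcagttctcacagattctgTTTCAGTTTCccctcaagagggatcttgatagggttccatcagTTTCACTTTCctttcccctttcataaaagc
OAS3, chr12:112938311-112938491, plus strand: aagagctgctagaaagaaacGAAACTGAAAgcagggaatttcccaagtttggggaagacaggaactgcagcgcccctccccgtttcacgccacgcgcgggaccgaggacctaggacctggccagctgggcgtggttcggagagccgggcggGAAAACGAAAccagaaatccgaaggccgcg
LGALS3BP, chr17:78979952-78980001, minus strand: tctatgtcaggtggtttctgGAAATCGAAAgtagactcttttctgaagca
DTX3L, chr3:122564312-122564361, plus strand: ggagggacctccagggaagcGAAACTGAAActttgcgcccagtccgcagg
PARP9, chr3:122564312-122564361, minus strand: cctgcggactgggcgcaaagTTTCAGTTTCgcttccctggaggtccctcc
The next 4 genes fell with MS177.
ISG15, chr1:1013364-1013419, plus strand: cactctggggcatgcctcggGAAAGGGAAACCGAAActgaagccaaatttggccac
MX1, chr21:41420549-41420587, plus strand: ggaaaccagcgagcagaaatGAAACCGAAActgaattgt
HERC5, chr4:88456974-88457074, plus strand: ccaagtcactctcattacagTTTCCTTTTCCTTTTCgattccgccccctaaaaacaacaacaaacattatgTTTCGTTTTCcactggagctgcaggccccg
BST2, chr19:17405725-17405780, minus strand: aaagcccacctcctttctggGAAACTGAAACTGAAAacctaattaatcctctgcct
The last, IFIT5, lies in the IFIT cluster with IFIT3 and did not pass the test.
IFIT5, chr10:89414503-89414593, plus strand: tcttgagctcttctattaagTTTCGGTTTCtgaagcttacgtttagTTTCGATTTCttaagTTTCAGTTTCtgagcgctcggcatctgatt
The DTX3L and PARP9 stretches are the opposite strands of the same DNA, a shared promoter in which both genes hold the same ISRE match at chr3:122564332-122564341. ISG15, MX1, HERC5 and BST2 thus carried the same core letters as IFIT3 and OAS3. Among tested members with a window, 11 of the 22 with an ISRE match were higher with MS177, 5 were lower and 6 were not called, with a median log2 fold change of 0.25; of all tested genes 28.9% were higher and 29.0% lower. Of the 12 without a match, 9 were higher, 2 lower and 1 not called, with a median of 0.72. STAT2, SP100, HERC6 and XAF1 were among the members that rose without a match in the window.

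The reads in listed genes numbered 20000665 to 26619099 per library. Levels are reads divided by the library's size factor (normalized reads), and fold changes are log2 fold changes from limma on log2(normalized reads + 1). A gene was called at a Benjamini-Hochberg adjusted p under 0.05 over the 14164 genes tested. MS177 changed much of the transcriptome, so counts of called genes in MS177 against DMSO, in role groups and related lists too, are to be read against 28.9% of all tested genes higher and 29.0% lower.

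With MS177, most interferon-stimulated genes rose against DMSO, but a minority that includes ISG15, MX1, OAS2 and TRIM25 fell. Of 41 tested members, 24 were higher (58.5%), 8 were lower (19.5%) and 9 were not called. Over all tested genes 28.9% were higher and 29.0% lower. The median log2 fold change of the members was 0.48, against 0.0045 for all tested genes. At least 2-fold changes were called in 12 members upward, where 9.63% of all genes passed, and in 1 downward (ISG15), where 4.56% passed. The members were chosen with earlier results of these data known, so these shares describe them and are no test. LGALS3BP, among the 24 higher and the 12, had enough reads to be tested only through the MS177 libraries. Both MS177 libraries lay above all 6 other libraries in 24 members (58.5%) and below them in 9 (22.0%). The same held for 33.2% and 31.7% of all tested genes. With scaling by total reads the 8 lower became 5, while over all genes 3443 of 14164 were lower, against 4110 with size factors. Fewer members were also lower without DMSO replicate 2, as were fewer of all genes. In bulk RNA, fewer cells of a type and less RNA per cell cannot be told apart.

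**Figure D1:**
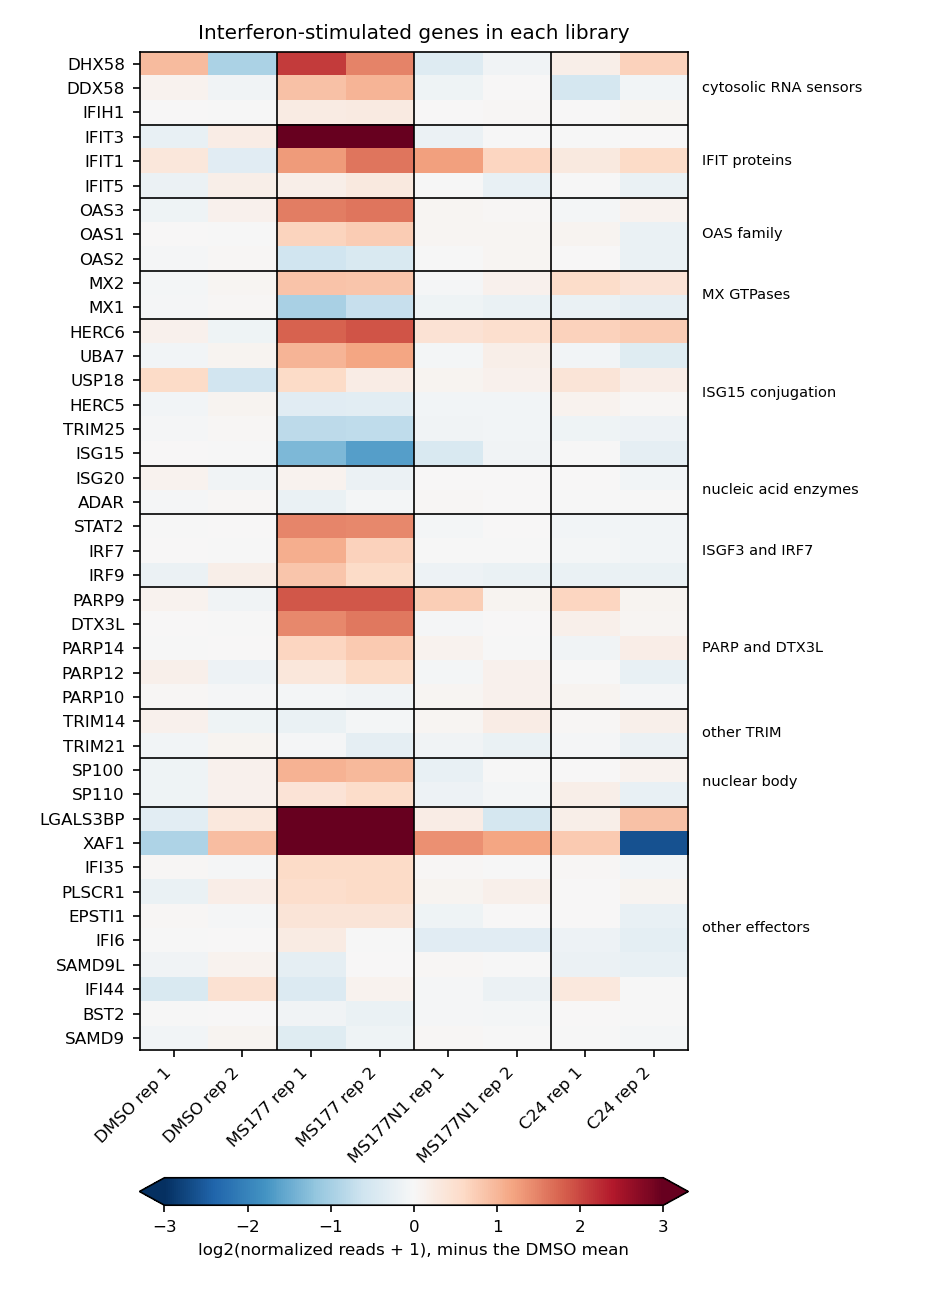
Each row is a tested member and each column a library; colour is the log2 of normalized reads + 1 minus the mean of the 2 DMSO libraries, and rows are grouped by role. Colours end at 3 in either direction, so IFIT3, LGALS3BP and XAF1 exceed the scale with MS177. The MS177 columns stand apart, with 24 members called higher and 8 called lower, while the MS177N1 and C24 columns stay close to DMSO in most rows.

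**Figure D2:**
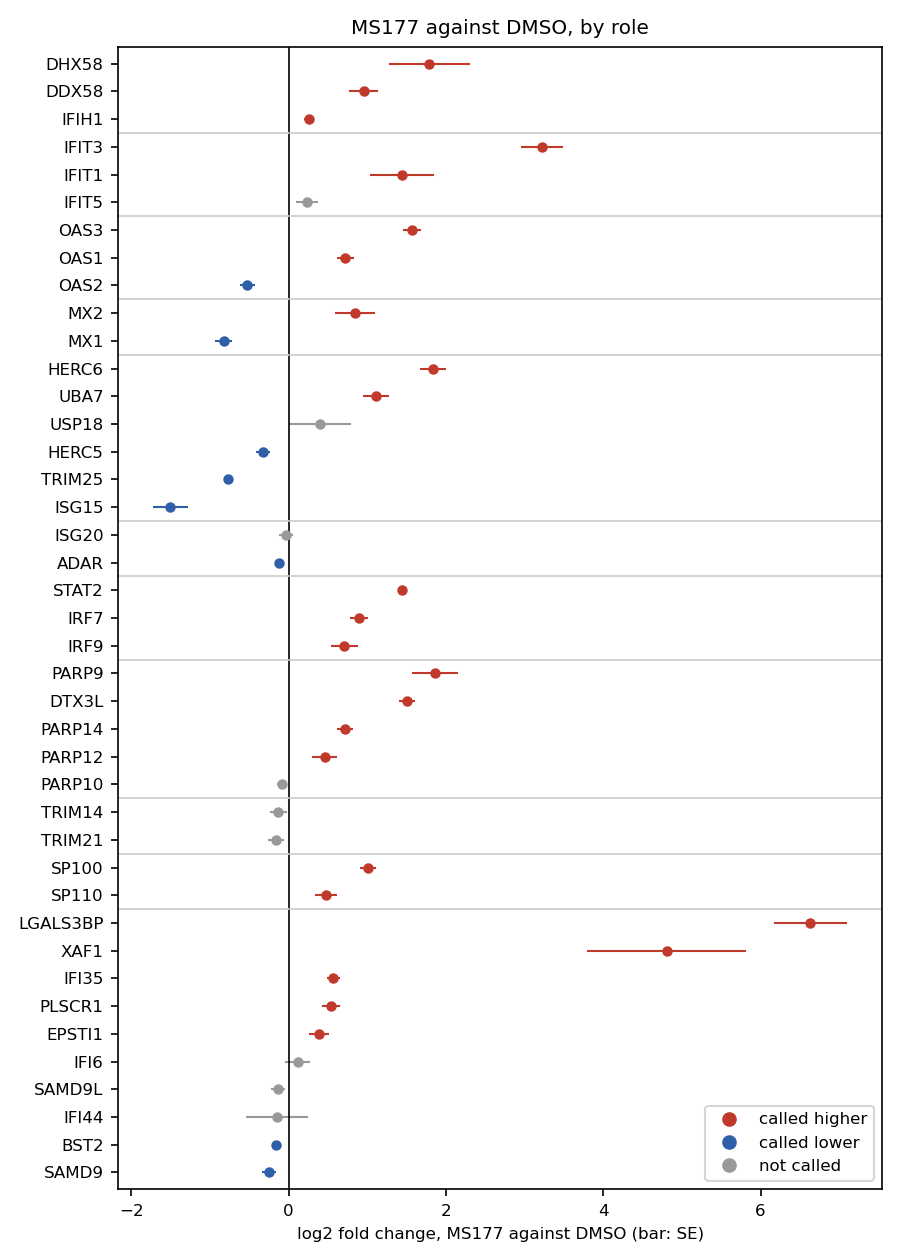
Log2 fold change of each tested member in MS177 against DMSO, grouped by role. Points are limma estimates from 2 libraries per group, and bars are standard errors, which are narrower than 95% intervals. Colours separate members called higher, called lower and not called at an adjusted p under 0.05. LGALS3BP, XAF1 and IFIT3 lie farthest to the right and ISG15 farthest to the left.

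Both ISGF3 subunits among the members rose with MS177, as did IRF7. STAT2, which contributes the activation domain of ISGF3, stood at 1647 and 1649 normalized reads with DMSO, 4521 and 4441 with MS177, 1592 and 1654 with MS177N1 and 1558 and 1561 with C24. The MS177 libraries lay far above the rest, which were close together (log2 fold change 1.44, SE 0.06, adjusted p = 8.56e-12). IRF9, the subunit that gives ISGF3 its DNA specificity, had 123 and 157 normalized reads with DMSO, 249 and 209 with MS177, 126 and 120.0 with MS177N1 and 122 and 122 with C24. Its MS177 libraries were the highest of the 8 (log2 fold change 0.71, SE 0.17, adjusted p = 0.00189). In GENCODE 29, 93.5% of the exon bases of IRF9 are shared with another protein-coding gene model on the same strand, so its reads are uncertain. IRF7, which amplifies interferon production, had 419 and 407 normalized reads with DMSO, 885 and 672 with MS177, 411 and 407 with MS177N1 and 399 and 390.4 with C24. The MS177 libraries differed from each other but both exceeded all others (log2 fold change 0.90, SE 0.11, adjusted p = 5.37e-06). All 3 of these factors were called higher.

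The cytosolic RNA sensors, which recognise viral RNA and signal through MAVS, were called higher in 3 of 3. DDX58 (RIG-I), the sensor of short RNA with triphosphate ends, had 133 and 114 normalized reads with DMSO, 228 and 253 with MS177, 112 and 124 with MS177N1 and 84.7 and 116 with C24. MS177 was highest in both libraries (log2 fold change 0.95, SE 0.18, adjusted p = 0.000319). IFIH1 (MDA5), the sensor of long double-stranded RNA, moved less, with 1120.4 and 1085 normalized reads with DMSO, 1317 and 1328 with MS177, 1120.5 and 1130.5 with MS177N1 and 1119 and 1145 with C24. MS177 lay above all other libraries, and the change was small beside that of DDX58 (log2 fold change 0.26, SE 0.07, adjusted p = 0.00271). DHX58 (LGP2), which modulates the other sensors, had 38.5 and 9.61 normalized reads with DMSO, 86.8 and 56.1 with MS177, 14.7 and 18.2 with MS177N1 and 22.3 and 32.1 with C24. Its MS177 libraries were highest, but the DMSO libraries themselves lay far apart (log2 fold change 1.79, SE 0.51, adjusted p = 0.00811). Without DMSO replicate 2 the DHX58 log2 fold change was 0.84 and not called, and without DMSO replicate 1 it was 2.74. The call was also lost without MS177 replicate 1.

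IFIT proteins bind viral RNA through its 5′ end and block its translation. IFIT3, the scaffold that steadies IFIT1, had 24.2 and 33.6 normalized reads with DMSO, 276 and 273 with MS177, 25.2 and 28.2 with MS177N1 and 28.2 and 28.8 with C24. This was a clean separation, with a 9.33-fold rise (log2 fold change 3.22, SE 0.26, adjusted p = 4.24e-08). IFIT1, which binds RNA lacking cap methylation, had 17.6 and 10.6 normalized reads with DMSO, 34.3 and 44.0 with MS177, 33.6 and 21.8 with MS177N1 and 17.1 and 21.0 with C24. The lower MS177 library was only just above the higher MS177N1 library (log2 fold change 1.44, SE 0.40, adjusted p = 0.00625), and the call was lost without DMSO replicate 2 or without MS177 replicate 2. IFIT5, whose promoter above holds 3 ISRE matches, had 234 and 302 normalized reads with DMSO, 301 and 326 with MS177, 265 and 226 with MS177N1 and 262 and 231 with C24. The DMSO and MS177 libraries overlapped (log2 fold change 0.24, SE 0.14, adjusted p = 0.171), and IFIT5 passed the test without DMSO replicate 2. IFIT2 had at most 5.61 normalized reads in any library and was not tested.

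The OAS genes lie side by side in the order OAS1, OAS3, OAS2 in GENCODE 29, and encode enzymes that make oligoadenylates on binding double-stranded RNA. OAS3 had 289 and 349 normalized reads with DMSO, 923 and 965 with MS177, 328 and 327 with MS177N1 and 304 and 344 with C24. It rose well clear of all other libraries (log2 fold change 1.57, SE 0.11, adjusted p = 7.53e-09). OAS1 had 337 and 333 normalized reads with DMSO, 534 and 572 with MS177, 350.4 and 350.1 with MS177N1 and 353 and 292 with C24, again with both MS177 libraries above the rest (log2 fold change 0.72, SE 0.11, adjusted p = 3.83e-05). OAS2, the gene next to OAS3, fell instead, with 643 and 681 normalized reads with DMSO, 439 and 482 with MS177, 661 and 691 with MS177N1 and 671 and 578 with C24. Both MS177 libraries lay below all others (log2 fold change -0.52, SE 0.09, adjusted p = 0.00019). OASL, the catalytically inactive relative, was under 10 normalized reads everywhere and was not tested.

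The neighbouring MX genes also moved apart. MX1, the GTPase that restricts influenza virus, had 557 and 585 normalized reads with DMSO, 293 and 354 with MS177, 521 and 496 with MS177N1 and 494 and 470.0 with C24. Its MS177 libraries were the lowest of the 8 (log2 fold change -0.83, SE 0.10, adjusted p = 5.37e-06). MX2, which restricts HIV, had 37.4 and 40.4 normalized reads with DMSO, 70.7 and 70.1 with MS177, 37.8 and 42.7 with MS177N1 and 57.3 and 52.0 with C24. The MS177 libraries were highest, followed by those of C24 (log2 fold change 0.84, SE 0.25, adjusted p = 0.00975).

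Genes grouped under ISG15 conjugation, which links the ubiquitin-like protein ISG15 to other proteins, did not move one way. Of 6 tested, 2 were higher (UBA7 and HERC6), 3 lower and 1 not called. HERC6 was placed in this group beside HERC5, and its part in the conjugation was not tested. Over all tested genes 28.9% were higher and 29.0% lower, so these few genes do not stand apart by their count. ISG15 itself had 112 and 109.6 normalized reads with DMSO, 42.9 and 34.6 with MS177, 80.8 and 104 with MS177N1 and 109.5 and 91.8 with C24. Both MS177 libraries were below the lowest of the others, in the largest fall of any tested member (log2 fold change -1.50, SE 0.22, adjusted p = 2.67e-05). UBA7, the activating enzyme of the pathway, had 117 and 129.8 normalized reads with DMSO, 252 and 282 with MS177, 118 and 139 with MS177N1 and 116 and 95.1 with C24. It was highest with MS177 (log2 fold change 1.11, SE 0.17, adjusted p = 3.75e-05). HERC5, the main ISG15 ligase in human cells, fell slightly: it had 558 and 624 normalized reads with DMSO, 468 and 477 with MS177, 555 and 561 with MS177N1 and 632 and 608 with C24 (log2 fold change -0.32, SE 0.09, adjusted p = 0.00571). Both MS177 libraries lay below all others, yet the call was lost without DMSO replicate 2.

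HERC6, the gene beside HERC5, had 84.7 and 71.1 normalized reads with DMSO, 269 and 292 with MS177, 106 and 110.0 with MS177N1 and 126 and 132 with C24. MS177 was far above the rest, and every MS177N1 and C24 library also exceeded both DMSO libraries (log2 fold change 1.84, SE 0.17, adjusted p = 1.24e-07 for MS177 against DMSO). TRIM25, a ubiquitin ligase for RIG-I that also acts as an ISG15 ligase, had 5905 and 6164 normalized reads with DMSO, 3502 and 3569.8 with MS177, 5631 and 5695 with MS177N1 and 5505 and 5428 with C24. The fall with MS177 was large against the spread within each group (log2 fold change -0.77, SE 0.05, adjusted p = 1.34e-09). USP18, the protease that removes ISG15 and restrains the receptor, was not called, with 37.4 and 16.3 normalized reads with DMSO and 37.5 and 29.0 with MS177 (log2 fold change 0.40, SE 0.39, adjusted p = 0.407). The DMSO libraries enclosed 1 of the MS177 libraries and the other was barely higher.

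**Figure D3:**
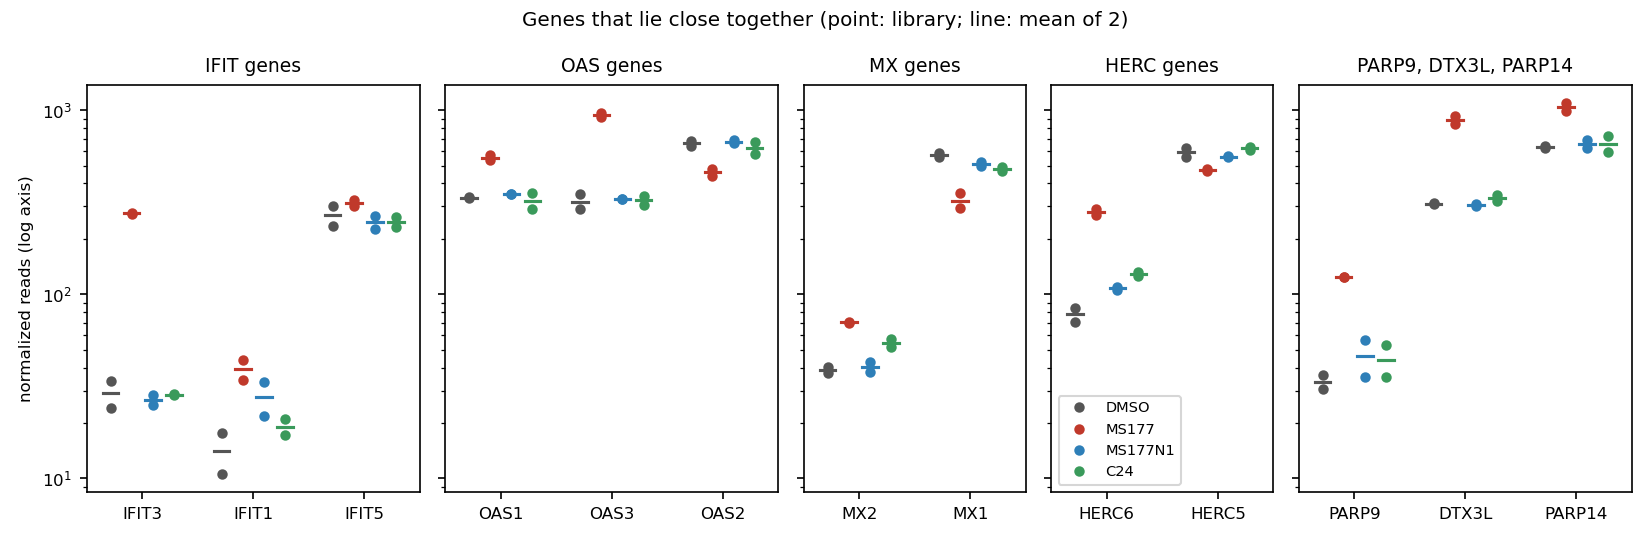
Normalized reads on a log axis for members that lie close together in the genome; points are libraries, lines are means of 2, and colours are the 4 groups. Within the OAS, MX and HERC groups 1 gene lies below the other groups with MS177 while its neighbours lie above, whereas PARP9, DTX3L and PARP14 all lie above.

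The PARP9, DTX3L and PARP14 genes lie together too, and here all rose. DTX3L, a ubiquitin ligase, and PARP9, its ADP-ribosyltransferase partner, form a complex. DTX3L had 311 and 309 normalized reads with DMSO, 843 and 925 with MS177, 302 and 310.1 with MS177N1 and 347 and 321 with C24. Its MS177 libraries were far above the others (log2 fold change 1.51, SE 0.10, adjusted p = 3.75e-09). PARP9 had 36.3 and 30.8 normalized reads with DMSO, 124 and 123 with MS177, 56.7 and 35.5 with MS177N1 and 53.1 and 35.4 with C24. The other 6 libraries were scattered but none came near MS177 (log2 fold change 1.86, SE 0.29, adjusted p = 4.83e-05). PARP9 and DTX3L share 217 exon bases on opposite strands, and whether counting used strand is not given in the sources used here. PARP14, a mono-ADP-ribosyltransferase, had 626 and 643 normalized reads with DMSO, 991 and 1094 with MS177, 686 and 625 with MS177N1 and 591 and 727 with C24, with MS177 highest (log2 fold change 0.71, SE 0.10, adjusted p = 1.43e-05). PARP12, an enzyme of the same class, rose by less (log2 fold change 0.46, adjusted p = 0.0192), and PARP10 did not pass the test (-0.08, adjusted p = 0.308). The PARP12 call was lost without DMSO replicate 2 or MS177 replicate 2. Of this group 4 of 5 were higher.

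Both tested nuclear body genes were higher. SP100, a defining protein of PML bodies, had 484 and 572 normalized reads with DMSO, 1092 and 1035 with MS177, 450.1 and 522 with MS177N1 and 527 and 569.6 with C24. The MS177 libraries were well above the rest (log2 fold change 1.01, SE 0.10, adjusted p = 4.11e-07). SP110, a related nuclear body protein, was higher by 0.48 (adjusted p = 0.00809), a call lost without DMSO replicate 1.

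Among 10 other effectors, 5 were higher, 2 lower and 3 not called. LGALS3BP, a secreted galectin-binding glycoprotein, had the largest fitted change of the tested members, with 3.30 and 5.77 normalized reads with DMSO, 551 and 518 with MS177, 5.25 and 2.73 with MS177N1 and 5.14 and 8.85 with C24. It was nearly unread outside MS177 (log2 fold change 6.63, SE 0.47, adjusted p = 8.18e-09). LGALS3BP is the 1 tested member that met the filter on low reads through the MS177 libraries alone, so a difference was built into its being tested, and its values are a description. XAF1, a pro-apoptotic antagonist of XIAP, had 2.20 and 10.6 normalized reads with DMSO, 175 and 165 with MS177, 14.7 and 12.7 with MS177N1 and 9.41 and 0 with C24. It was low in all other libraries, 1 C24 library at 0 among them (log2 fold change 4.81, SE 1.01, adjusted p = 0.00296). Its log2 fold change was 3.88 without DMSO replicate 1 and 5.74 without DMSO replicate 2, called in both. In GENCODE 29, 69.9% of XAF1 exon bases are overlapped by a transcript on the opposite strand, so its reads are uncertain. IFI35, which binds NMI, had 762 and 717 normalized reads with DMSO, 1102 and 1093 with MS177, 754 and 732 with MS177N1 and 762 and 701 with C24, with MS177 highest (log2 fold change 0.57, SE 0.08, adjusted p = 1.13e-05). PLSCR1, a phospholipid scramblase, and EPSTI1 were higher by 0.54 and 0.39 (adjusted p = 0.000583 and 0.016). The EPSTI1 call was lost without DMSO replicate 2.

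BST2 (tetherin), which holds budding virions at the cell surface, had 9624 and 9698 normalized reads with DMSO, 8924 and 8349 with MS177, 9423 and 9321 with MS177N1 and 9755 and 9568 with C24. The fall was small, with both MS177 libraries below all others (log2 fold change -0.16, SE 0.04, adjusted p = 0.00528). With scaling by total reads in place of size factors BST2 was no longer called. SAMD9, a restriction factor for poxviruses, was lower by a similar amount (log2 fold change -0.25, SE 0.09, adjusted p = 0.0219). Its call was lost with that scaling, in a fit of the 2 groups alone, and without DMSO replicate 2 or MS177 replicate 1. Its paralog SAMD9L (-0.13), IFI6 (0.11) and IFI44 (-0.15) were not called, with adjusted p = 0.216, 0.553 and 0.776.

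Genes that edit or digest nucleic acids changed little. ADAR, which converts adenosine to inosine in double-stranded RNA, had 13174 and 13918 normalized reads with DMSO, 11830.5 and 13037 with MS177, 13901 and 13586 with MS177N1 and 13381 and 13454 with C24. Both MS177 libraries lay below all others, but not far from each DMSO library (log2 fold change -0.12, SE 0.05, adjusted p = 0.0377) and was lost in 8 of 16 alternative settings, among them total-read scaling. The exonuclease ISG20 was not called (-0.03, adjusted p = 0.755). The TRIM proteins TRIM14 and TRIM21 were not called either (-0.13 and -0.15, adjusted p = 0.314 and 0.213). CMPK2, TRIM22 and IFI27 had at most 9.91 normalized reads and were not tested.

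Of the 8 members that fell, 7 were among the more deeply read. Split at 459 normalized reads averaged over the 8 libraries, the median of the members, 16 of the 21 at or below were higher (76.2%) and 1 was lower (4.76%). All tested genes in that range were 28.6% higher and 15.9% lower. Above the split, 8 of 20 members were higher (40.0%) and 7 lower (35.0%), against 29.2% and 41.6% of all tested genes. The median log2 fold change was 0.84 for the less read members and -0.10 for the more read ones, beside 0.17 and -0.08 for all genes in those ranges. Reads are not corrected for transcript length, so the split follows counting depth and not molar level.

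The 2 related compounds, at the same dose and time, left the members near DMSO. With MS177N1, limma called 0 of 41 members higher and 0 lower, where 0.0% and 0.0353% of all genes were called. Before adjustment 3 members (HERC6, IFI6 and IFIT1) had p under 0.05, and a limma voom fit also called 0. The 95% interval lay within 2-fold in either direction for 36 of 41 members. Those outside were DHX58, IFIT1, LGALS3BP, PARP9 and XAF1, so a change of that size was not excluded for them.

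With C24, limma and limma voom again called 0 members in either direction, where 0.0212% of all genes were higher and 0.0706% lower. Before adjustment 4 members (HERC6, MX1, SAMD9L and TRIM25) had p under 0.05, and intervals lay within 2-fold for 34 of 41. HERC6 had the smallest p of these comparisons, with log2 fold change 0.72, SE 0.17, adjusted p = 0.321 for C24 and log2 fold change 0.47, SE 0.17, adjusted p = 0.965 for MS177N1. MS177N1 differed from C24 in 0 members by either fit, with 1 (SAMD9L, 0.03 to 0.41 as 95% interval of the log2 difference) under 0.05 before adjustment. Over all genes 0.0% were higher and 0.0141% lower in that comparison, and 35 of 41 members had an interval within 2-fold. A missed threshold does not show that the compounds act alike.

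**Figure D4:**
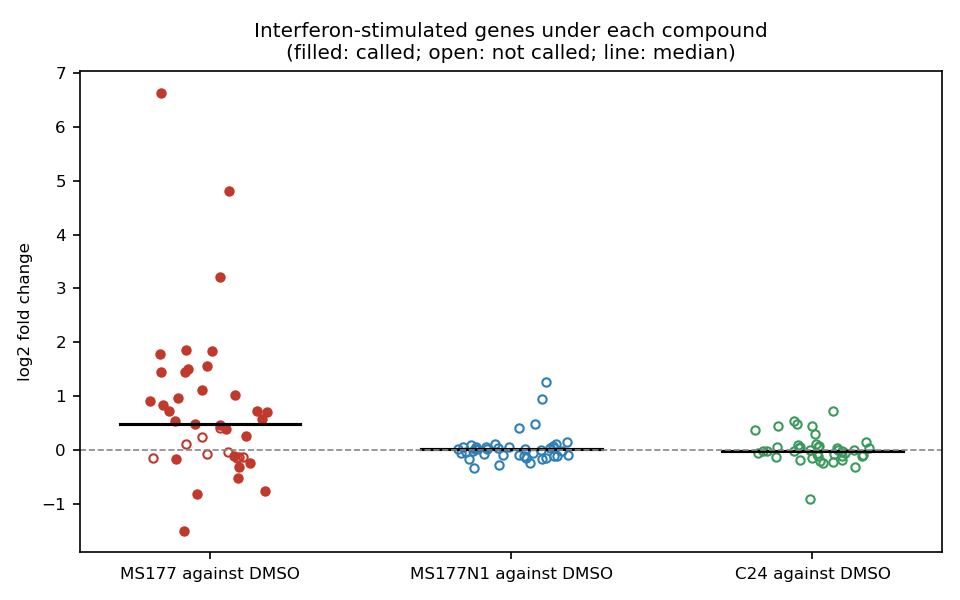
Log2 fold change against DMSO of the 41 tested members under each compound at 0.5 uM for 24 h; each point is a gene, filled where called, and the bar is the median. The points spread from -1.50 to 6.63 with MS177, and 0 are filled with MS177N1 or C24.

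Against each related compound MS177 gave counts much like those against DMSO, with the same 2 MS177 libraries in all of these comparisons. Against MS177N1, 25 members were higher and 10 lower, beside 28.8% and 28.6% of all genes, with a median of 0.46. Fewer members than these 10 were lower without MS177 replicate 1 or without either MS177N1 replicate, as were fewer of all genes. Against C24, 24 were higher and 7 lower, beside 29.1% and 29.0%, with a median of 0.49. STAT2 was higher by 1.46 and 1.52, IFIT3 by 3.32 and 3.22, and LGALS3BP by 6.79 and 6.11. ISG15 was lower in both, at -1.23 and -1.36, as was MX1, at -0.66 and -0.58. IFIT1 did not pass against MS177N1 (log2 fold change 0.50, SE 0.40, adjusted p = 0.305), nor MX2 against C24 (log2 fold change 0.36, SE 0.25, adjusted p = 0.238). IFIT5, not called against DMSO, was higher against MS177N1 and C24 (0.35 and 0.35, adjusted p = 0.0444 and 0.0467).

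Upstream of the members, none of the 21 interferon ligand genes in the list were analysed here. Of 11 receptor and kinase genes, 8 were higher with MS177 (72.7%) and 2 lower (18.2%), with a median of 0.25, beside 28.9% and 29.0% of all tested genes. IFNAR2, the signalling chain of the type I receptor, fell, with 3086 and 2937 normalized reads with DMSO, 1918 and 1949 with MS177, 3071 and 2996 with MS177N1 and 3102 and 2867 with C24 (log2 fold change -0.64, SE 0.06, adjusted p = 1.03e-07). The partner chain IFNAR1 was higher by only 0.13 (adjusted p = 0.0493), a call lost in 10 of 16 alternative settings. JAK1 and TYK2 were higher by 0.47 and 0.22 (adjusted p = 7.59e-07 and 0.00531). STAT3 (1.28), IFNGR1 (0.80), JAK2 (0.63), IL10RB (0.44) and IFNLR1 (0.25) were higher, the IFNLR1 call being lost without DMSO replicate 1 or MS177 replicate 1, and IFNGR2 did not pass (0.12, adjusted p = 0.111).

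Of 20 tested genes of the interferon induction pathway 11 were higher (55.0%) and 3 lower, with a median of 0.23, beside the same 28.9% and 29.0% of all genes. TMEM173 (STING), the adaptor for cytosolic DNA sensing, had 62.7 and 45.2 normalized reads with DMSO, 557 and 601 with MS177, 71.3 and 50.0 with MS177N1 and 54.8 and 63.0 with C24 (log2 fold change 3.42, SE 0.22, adjusted p = 2.81e-09). TLR3 (2.50), TLR7 (0.92) and TRAF6 (0.74) were the next largest rises. TLR3 was at 1.88 without DMSO replicate 1 and 3.13 without DMSO replicate 2, called in both. Of those that fell, named after their values were seen, MB21D1 (cGAS), the DNA sensor upstream of STING, was at -0.50 and the kinase IKBKE at -0.66 (adjusted p = 5.81e-05 and 1.02e-06). Of 17 negative regulators 6 were higher (35.3%) and 4 lower (23.5%), with a median of 0.12, shares near the 28.9% and 29.0% of all genes. The largest rise was that of SOCS3, whose DMSO libraries held 0 and 7.69 and whose MS177 libraries held 40.7 and 27.1 normalized reads (log2 fold change 3.54, SE 1.01, adjusted p = 0.00716). Without DMSO replicate 1 it was 1.98 and not called, and without DMSO replicate 2 it was 5.10.

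Of 29 tested IRF1 and interferon gamma targets 13 were higher (44.8%) and 5 lower (17.2%), with a median of 0.18, beside 28.9% and 29.0% of all genes. ETV7 (4.08), CXCL11 (3.79), GBP4 (3.52) and CXCL9 (2.98) rose most, none of them above 39.6 normalized reads in a DMSO library. CXCL9 was at 2.32 without DMSO replicate 1 and 3.64 without DMSO replicate 2. Of these lists ETV7, CXCL11, CXCL9, SOCS3 and IFITM1 met the filter through the MS177 libraries alone. Of 36 further type I interferon-stimulated genes outside the members 17 were higher (47.2%) and 6 lower (16.7%), with a median of 0.39, beside the same shares of all genes. LAMP3, a lysosomal membrane protein of maturing dendritic cells, had 236 and 214 normalized reads with DMSO, 1849.6 and 1755 with MS177, 215 and 193 with MS177N1 and 219 and 196 with C24, a 7.99-fold rise (adjusted p = 5.76e-12). ZNFX1 (1.58), TRIM38 (1.41) and RTP4 (1.21) followed. Some genes stand in 2 of these lists. With MS177N1 or C24 limma called 0 genes of these lists, and at most 3 genes of a list had p under 0.05 before adjustment.

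**Figure D5:**
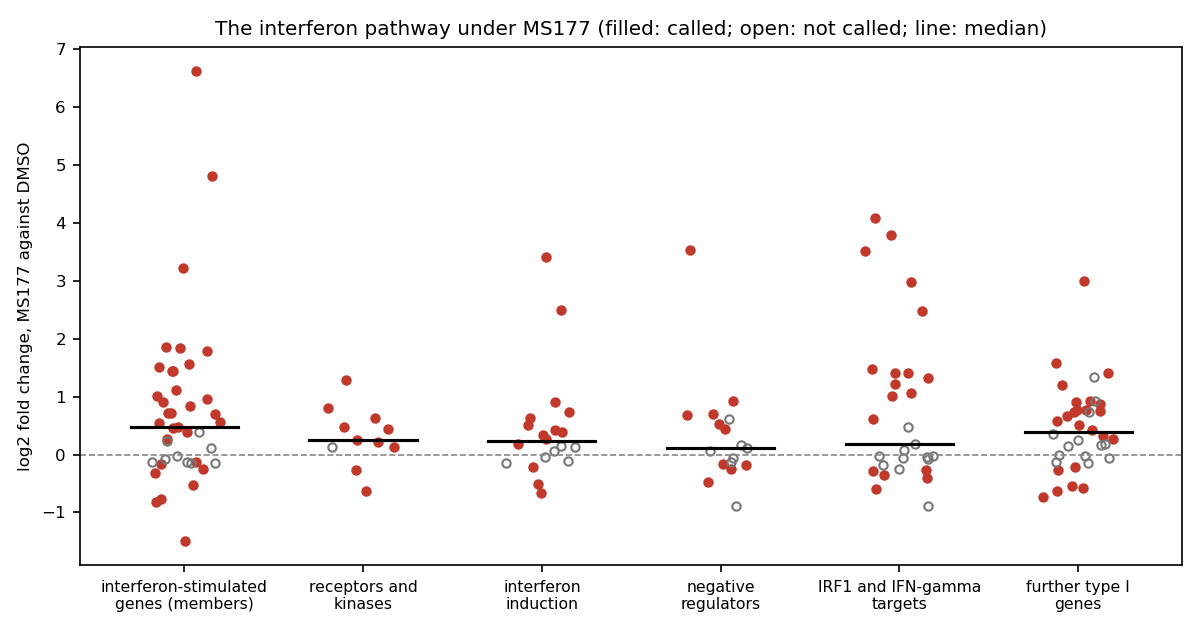
Log2 fold changes in MS177 against DMSO for the members and 5 related lists; each point is a tested gene, filled where called, and bars are medians. The medians run from 0.12 in negative regulators to 0.48 in the members, and every list holds genes on both sides of 0.

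Markers of the cell line and of other cells moved with MS177 as well. All 10 plasma-cell markers were listed, and their summed level was 203233 to 203290 normalized reads with DMSO and 127298 to 129600 with MS177; 8 of the 10 were lower and XBP1 was higher (0.11, adjusted p = 0.0183). Of 10 monocyte and macrophage markers 6 were listed, summing to 300.5 to 378 with DMSO and 1592 to 1729 with MS177, mostly CD68 (282 and 356 and 1585 and 1471). AIF1 (4.52), CD163 (4.19) and S100A9 (2.36) were called higher too, with SEs of 1.05, 1.15 and 0.57 (adjusted p = 0.00156, 0.00541 and 0.00222). CD14 was at most 10.3 and CSF1R at most 3.74 normalized reads in every library. Of 5 plasmacytoid dendritic cell markers 3 were listed, at 0 to 4.40 with DMSO and 61.7 to 79.3 with MS177. Of these, IL3RA was called higher (4.51, adjusted p = 0.000144). Outside MS177 the 3 together reached at most 8.19 normalized reads in any library. IL3RA thus met the filter through the MS177 libraries alone, and its values are a description. Whether other markers met the filter only in that way was not examined. GZMB, not tested, was at 0 in all libraries but the MS177 ones. T and NK cell markers (3 of 8 listed) summed to 75.9 to 109 and 38.3 to 47.2, and stromal and epithelial markers (7 of 8) to 202.5 to 256 and 159.9 to 181. Among the last, COL1A1 was higher (1.96, adjusted p = 0.00317), PECAM1 was lower (-0.91, adjusted p = 0.000105) and KRT18 was not called (1.59, adjusted p = 0.0603). The part of these shifts in the changes of the interferon-stimulated genes was not tested.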

How the data were processed

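Libraries were made from total RNA of MM1.S cells with the NEBNext Ultra II kit, per the labels' protocols. STAR 2.4.2, Salmon 0.1.19, DESeq2 1.38.2 and the build hg19 are named in the submitters' processing notes, with no role or order. The authors deposited normalized log2 values for 16295 genes in 8 libraries, per the file headers. These values had the form of a variance-stabilizing transformation with a shared minimum of 5.967655733. Inverted, 130360 of 130360 values were whole reads within 0.01 reads once scaled by size factors, and those factors equalled median-of-ratios factors.

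A gene was tested where 2 or more libraries reached 10 reads, scaled to a median-sized library, and all 8 together held 15 or more; 14164 genes passed and 2131 did not. The filter left out 5 members. limma 3.58.1 (trend, robust; statmod 1.5.0, R 4.3.3) was fitted to log2(normalized reads + 1) with 4 groups in 1 fit and 6 comparisons, with Benjamini-Hochberg adjustment; the fold changes are on that scale, which understates the change of low genes. A count-based test had been planned only for deposited raw counts. The fit was tested on simulated data. The labels do not say whether replicate numbers pair the samples. Deviations of same-numbered libraries correlated between -0.0621 and 0.0602 over genes. No shared shift was thus seen, which does not show that the samples were unpaired.

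The members and lists were chosen with earlier results of these data known. Values are given in full for up to 3 members called higher and 2 called lower per role group, by size of change, and for other members named beside them. Alternatives were the pseudocount, filter, scaling, deposited scale, limma voom, a fit of 2 groups, a replicate block, each library left out, and stricter calls. The build of the files is hg19, so coordinates are given for the RefSeq promoter windows of GRCh38.p14 only, and gene order and exon overlap come from GENCODE 29. A few genes of the related lists are counted in them but are not reported here by name.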

Additional observations from a re-analysis of the deposited data

How the results depend on the processing

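No direction reversed. Of 32 members called in MS177 against DMSO, 23 were called under all 16 alternative fits (19 higher, 4 lower). With a replicate block the counts were 24 higher and 8 lower against DMSO, 25 and 10 against MS177N1, and 23 and 8 against C24, and 0 for the other comparisons. Over all 14164 genes that block gave 4125 higher and 4174 lower against DMSO, 4127 and 4152 against MS177N1, and 4162 and 4197 against C24. With at least 2-fold required, MS177 had 12 higher and 1 lower against DMSO, beside 9.63% and 4.56% of all genes. The counts were 12 and 1 against MS177N1, and 11 and 1 against C24. Scaling by total reads gave 5 lower against DMSO and 4 against MS177N1, beside 3443 and 3426 lower of 14164 genes. It moved the median of all genes to 0.09 in MS177 against DMSO. An adjusted p under 0.01 gave 4 lower against MS177N1. The shares of all genes at that threshold, and at 2-fold against MS177N1 and C24, were not counted. Leaving out each library in turn gave 21 to 24 higher and 5 to 9 lower against DMSO, 21 to 25 and 4 to 10 against MS177N1, and 18 to 24 and 5 to 9 against C24. Leaving one out leaves a group with 1 library, assumed to vary like the others. Over all genes each such fit of MS177 against DMSO called fewer higher and fewer lower than the fit of all 8 libraries. Against MS177N1 and against C24 this also held for each fit without an MS177, MS177N1 or C24 library. Fits without a DMSO library called more of all genes higher and more lower in those comparisons. The ranges of member counts are to be read beside these shifts over all genes. The causes of these shifts were not tested. With 2 libraries a group, changes of thinly read members had the largest standard errors: XAF1, DHX58, LGALS3BP, IFIT1, IFI44 and USP18.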
